A study of Mus musculus with 2 samples.

Results

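The genes described here encode the core and regulatory proteins of pre-mRNA splicing in mouse bone marrow. They were chosen by symbol alone: 52 of the 32286 features of the matrices carry a symbol that begins with Srsf, Snrp, Sf3a, Sf3b or Hnrnp, pseudogenes left out. They comprise 11 SR proteins (Srsf genes), 12 small nuclear ribonucleoprotein (snRNP) proteins (Snrp genes), 9 subunits of the SF3A and SF3B complexes (Sf3a and Sf3b genes) and 20 heterogeneous nuclear ribonucleoproteins (hnRNPs). All 52 are annotated as protein-coding, on 18 chromosomes of GRCm38.

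Introns are removed by the spliceosome, which is assembled on each intron from snRNPs. A ring of Sm proteins surrounds the small nuclear RNA of most snRNPs, and the SF3A and SF3B complexes are the parts of the U2 snRNP that hold the branch point. SR proteins mostly bind exons and promote the use of nearby splice sites, whereas many hnRNPs repress sites or package the nascent transcript, and SR protein and hnRNP genes commonly restrain their own expression by splicing in exons that send the transcript to decay. In blood, mutations of Sf3b1 and Srsf2 are recurrent in human myeloid neoplasms, and the transcription factor MYC has been linked to the expression of Sm protein genes and of several SR proteins and hnRNPs.

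The study asked how bone marrow expression profiles differ once MYC is overexpressed. Primary bone marrow cells were measured as single cells with a droplet-based 3′ kit in 2 libraries. The control library came from the genotype Mx1Cre+/-;Rosa26+/+ and the MYC library from Mx1Cre+/-;Rosa26LSL-MYC/LSL-MYC, so both carried the Mx1-Cre transgene, whose interferon-inducible promoter acts in many cell types besides stem cells. The strain, age and number of animals behind each library, and any treatment used to induce Cre, are not given in the sources used here. With 1 library per genotype there is no replicate, so no test between genotypes was possible. The intervals, all at 95%, describe counting error alone, and any difference between the libraries cannot be told apart from a difference between the animals or preparations behind them.

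After filtering, 14760 control cells and 12645 cells of the MYC library were kept, at median depths of 5321.5 and 6014 unique molecular identifiers (UMIs). The latter are called MYC cells after their library, whether or not a cell held a UMI of the transgene. A feature named MYC held 0 UMIs in control cells and 295 UMIs in MYC cells. The libraries shared 97 cell barcodes. Cells were assigned to classes from marker genes, with the 52 genes left out of the clustering, and 8 classes were compared: stem or multipotent progenitors (190 control cells and 180 MYC cells), granulocyte progenitors (634 and 489), immature neutrophils (4223 and 2842), mature neutrophils (1792 and 1187), monocytes (1441 and 1755), erythroid cells (1466 and 586), B lineage cells (1210 and 239) and T or NK cells (387 and 151). In all, 2876 control cells (19.5%) and 4298 MYC cells (34%), in 5 clusters, were given no name and are in no class. Each class held the highest summed level of its own markers in both libraries. The share of UMIs from cytosolic ribosomal protein genes was higher in the MYC library in each of the 8 classes, for example 8.87% against 4.42% in immature neutrophils and 24% against 16% in monocytes. Levels are given as CPM, the UMIs of a gene per 1000000 UMIs of the class in that library, and the log2 ratio is that of (CPM + 1) in the MYC library over (CPM + 1) in the control.

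MYC and its partner MAX bind the E-box CACGTG, a palindrome that reads alike on both strands, so the promoters of the genes were searched for these letters. RefSeq promoter windows on GRCm38.p6, from 250 bases before a gene's start to 50 bases after it, were available for 46 of the 52 genes. The motif was in a window of 6 of these 46 genes (13%), beside 8.09% of all 27025 genes with a window. The 6 were 5 hnRNP genes, Hnrnpa3, Hnrnpd, Hnrnpf, Hnrnph2 and Hnrnpm, and 1 snRNP gene, Snrpa, while none of the 11 SR protein genes and none of the 7 matched SF3 genes held it. In Hnrnpm and Hnrnph2 the motif lay 13 and 15 bases after the start. The 250 bases before the start are printed 5′ to 3′ on the gene's strand for the 4 genes with the motif upstream, since these are the windows in which the letters that MYC binds were found, and the motif is in capitals. In Snrpa the motif occurs at -73 and -32 of the window at chr7:27196272-27196521 on the minus strand. In Hnrnpa3 it lies at -18 of chr2:75659009-75659258 on the plus strand, in Hnrnpd at -32 of chr5:99978939-99979188 on the minus strand, and in Hnrnpf at -79 of chr6:117907554-117907803 on the plus strand. A second annotated start of Snrpa has the motif at -69.
Snrpa: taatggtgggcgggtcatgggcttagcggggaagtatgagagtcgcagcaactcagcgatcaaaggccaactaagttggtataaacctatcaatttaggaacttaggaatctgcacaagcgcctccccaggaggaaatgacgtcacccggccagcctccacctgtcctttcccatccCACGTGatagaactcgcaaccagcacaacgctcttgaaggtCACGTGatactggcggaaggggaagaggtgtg
Hnrnpa3: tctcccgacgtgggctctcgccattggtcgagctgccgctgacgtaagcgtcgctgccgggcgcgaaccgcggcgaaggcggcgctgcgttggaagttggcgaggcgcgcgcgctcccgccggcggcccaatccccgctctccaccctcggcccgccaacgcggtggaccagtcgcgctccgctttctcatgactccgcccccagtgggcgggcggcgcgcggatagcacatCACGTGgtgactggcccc
Hnrnpd: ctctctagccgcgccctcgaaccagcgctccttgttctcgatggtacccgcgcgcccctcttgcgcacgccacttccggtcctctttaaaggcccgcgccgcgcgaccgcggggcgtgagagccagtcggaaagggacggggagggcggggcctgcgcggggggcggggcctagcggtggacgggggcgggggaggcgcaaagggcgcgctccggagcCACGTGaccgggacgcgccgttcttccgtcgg
Hnrnpf: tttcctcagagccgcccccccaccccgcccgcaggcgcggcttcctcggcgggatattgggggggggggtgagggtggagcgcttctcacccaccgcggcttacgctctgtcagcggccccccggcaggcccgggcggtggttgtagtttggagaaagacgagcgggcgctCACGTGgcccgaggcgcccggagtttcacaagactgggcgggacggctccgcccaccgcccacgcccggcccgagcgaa
A match is a stretch of letters and was not tested as a binding site. In immature neutrophils the log2 ratio of Snrpa, which encodes a U1 snRNP protein, was 0.60 (0.46 to 0.80), but -0.52, 0.39, 0.31 and 0.39 inside clusters 2, 3, 6 and 27 of that class. That of Hnrnpd, an AU-rich element binding hnRNP, was 0.45 (0.41 to 0.50), that of Hnrnpm -0.21 (-0.27 to -0.16), and those of Hnrnpa3, Hnrnpf and Hnrnph2 were 0.14, 0.21 and -0.54. These hnRNP values are for the whole class only, whose makeup differed between the libraries. In stem or multipotent progenitors Snrpa, Hnrnpd and Hnrnpm stood at -0.25 (-0.48 to -0.03), 0.35 (0.25 to 0.46) and -0.28 (-0.39 to -0.16), and Hnrnpa3, Hnrnpf and Hnrnph2 at -0.10, 0.11 and -0.12.

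Within each library, the summed level of the 52 genes was highest in stem or multipotent progenitors when whole classes were compared, and low in mature neutrophils. Their summed level was 13444.3 CPM (13335.1 to 13554.1) in control stem or multipotent progenitors and 13495.6 CPM (13373.8 to 13618.1) in those of the MYC library. In mature neutrophils it was 4522.7 CPM (4468.3 to 4577.6) and 3945.9 CPM (3892.5 to 3999.8). Erythroid cells, granulocyte progenitors and monocytes lay between 10810.1 and 12371.1 CPM in the control and between 10942.7 and 12217.5 CPM in the MYC library, and immature neutrophils at 5870.5 and 6433.9 CPM. Clusters within a class spread further: the early erythroid cluster 25 stood above stem or multipotent progenitors, at 17587.4 CPM in control and 14615.8 CPM in MYC cells, while plasma cells at 3138 and 3129.4 CPM and control erythroblasts at 2728.6 CPM stood below mature neutrophils. CPM is a share of all UMIs. Immunoglobulin genes such as Igkc led the plasma cells, and globin genes such as Hbb-bs were among the leading genes of the erythroblasts. The part of such abundant transcripts in these low sums was not tested.

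**Figure D1:**
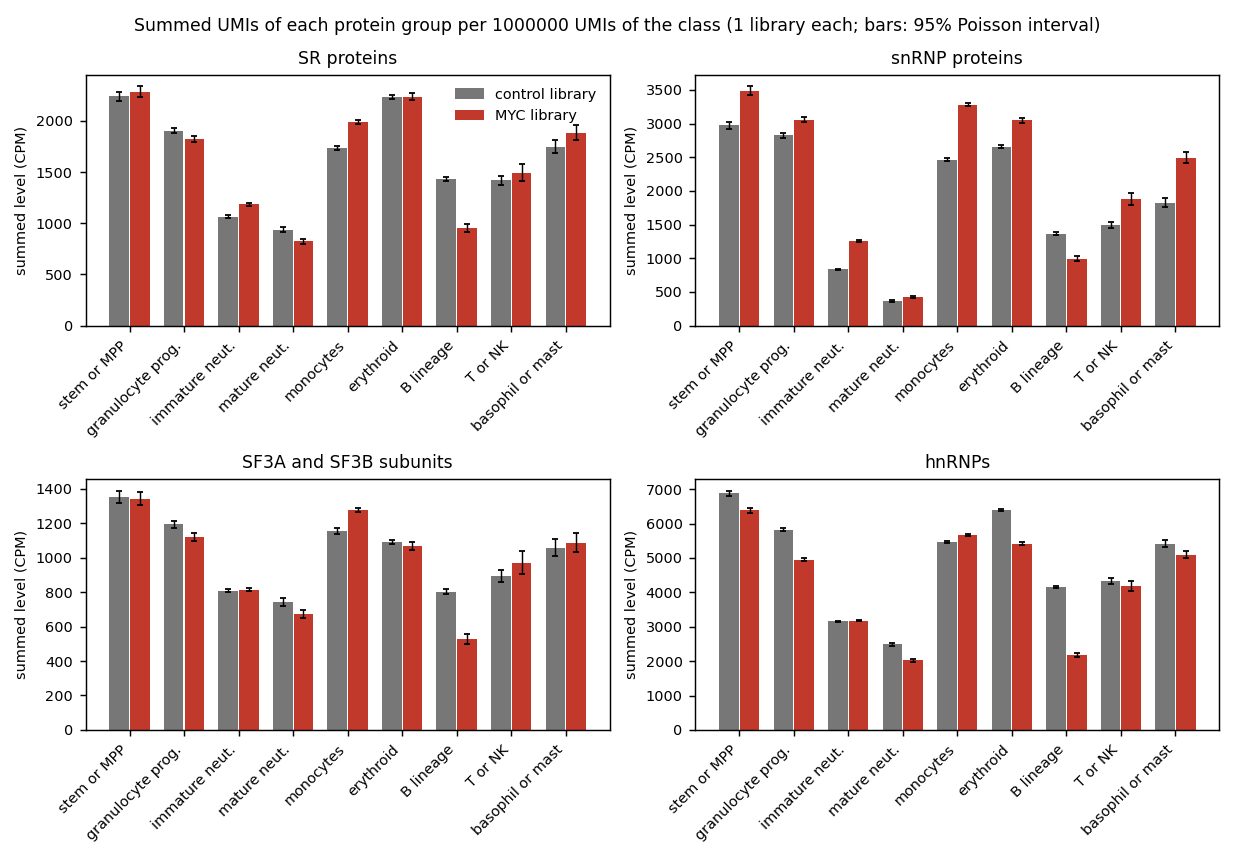
Summed level (CPM) of the 11 SR protein, 12 snRNP, 9 SF3 and 20 hnRNP genes in 9 cell classes of the control (grey) and MYC (red) libraries, with 95% Poisson intervals and 1 library per bar. All 4 groups are low in mature neutrophils, and snRNP genes are higher in the MYC library in every class shown except B lineage cells.

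The order of the classes was much the same in both libraries. Of the 41 genes that averaged 50 CPM or more over 9 classes in each library (the 8 above and basophils or mast cells), 24 were highest in stem or multipotent progenitors in control and 22 in MYC cells. Mature neutrophils held the lowest level of 32 of the 41 genes in the control and of 28 in the MYC library, where B lineage cells held the lowest level of the other 13. Spearman's rho between the libraries over the 9 class levels of a gene ranged from 0.58 to 0.97 with a median of 0.90, a description of classes that share a library and its depth.

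Several Sm ring genes were among those that varied most between classes, but not every one: Snrpd3 had a spread of 2.37 (control) and 1.87 (MYC library) on the log2 scale. Snrpf had the largest spread in the control, 4.10, from 492 CPM in stem or multipotent progenitors to 27.8 CPM in mature neutrophils. Snrpg and Snrpd2, also ring proteins, followed with 3.77 and 3.67. In the MYC library the largest spreads were those of Snrpa1, a U2 snRNP protein that averaged under 50 CPM in the control and is not among the 41 (3.91), Snrpf (3.79) and Snrpd1, a ring protein (3.71), beside a median over the 41 genes of 1.98 (control) and 1.99 (MYC library). A few genes varied less across classes. Sf3b1, the branch point subunit, ranged only from 215 CPM in erythroid cells to 269 CPM in basophils or mast cells in the control, a spread of 0.32, and was again the least variable in the MYC library with 0.84. In the control the next smallest spreads were 0.60 for Hnrnph2, which binds runs of G, and 0.66 for Sf3b2, a partner of Sf3b4 in SF3B, and in the MYC library 0.92 for Srsf5 and 1.11 for Hnrnph2.

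Against stem or multipotent progenitors of the same library, neutrophils and lymphoid cells held less of most of the 50 genes, while monocytes and erythroid cells, taken as whole classes, had few lower genes. In immature neutrophils 41 genes were at least 1.5-fold lower in the control, beside 52.6% of all features, and 41 in the MYC library, beside 52.1%. In mature neutrophils 42 were lower, beside 56.8%, and 43, beside 57.4%. B lineage cells had 35 lower genes in the control, beside 49.2%, and 48 in the MYC library, beside 66.9%, and T or NK cells had 34, beside 38.3%, and 27, beside 39.6%. In erythroid cells 6 were lower in the control, beside 44.8%, and none in the MYC library, beside 37.6%. Erythroblasts, 26.2% of the control and 25.9% of the MYC cells of that class, nonetheless summed to 2728.6 and 4177.9 CPM. In monocytes 10 genes were lower, beside 26.1%, and 1, beside 23.1%, in granulocyte progenitors 4, beside 25.6%, and 5, beside 30.2%, and in basophils or mast cells 19, beside 24.9%, and 14, beside 26.2%. Monocyte cluster 8, which held 58.3% of the control and 42.6% of the MYC cells of its class, summed to 7280.9 and 8313.4 CPM, below clusters 12 and 20 at 13069 and 13411.2 CPM in the control. No class had more than 2 genes that were 1.5-fold higher than in these progenitors, beside 8.54% to 23.2% of all features; in basophils or mast cells, for example, none was higher, beside 21% and 19.6%.

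Mature neutrophils were set against granulocyte progenitors gene by gene, separately in each library. In the control 43 of the 50 genes with at least 50 UMIs over both classes were at least 1.5-fold lower in mature neutrophils, beside 55.7% of all 9877 features tested, and 1 was at least 1.5-fold higher, beside 22.6%. In the MYC library 45 were lower, beside 53.8%, and 1 higher, beside 23%. The genes' median log2 ratio was -1.66 in control and -1.56 in MYC cells, where the medians over all features were -0.85 and -0.75. The same 43 genes were lower in both libraries, and Srsf5 was the gene that was higher in both. Srsf5, an SR protein, stood at 237 CPM in granulocyte progenitors, 269 CPM in immature and 444.5 CPM in mature neutrophils of the control, and at 208, 241 and 378 CPM in the MYC library. Mature neutrophils were its highest class in both libraries. By contrast Srsf3, a small SR protein, went from 417 to 96.3 CPM in the control and from 447 to 88.6 CPM in the MYC library. Snrpg went from 703 to 50.8 CPM and from 652 to 54.5 CPM. Immature neutrophils, as a class, had 43 genes lower than in granulocyte progenitors in the control, beside 45.8%, and 36 in the MYC library, beside 38.4%. Their clusters differed: in the control the histone-rich cluster 3 summed to 8819.8 CPM over the 52 genes, whereas clusters 2 and 6 summed to 3739.8 and 4248.9 CPM, below the 4522.7 CPM of mature neutrophils. Mature neutrophils also carried the highest summed level of 19 dissociation stress genes of any of the 8 classes, 9095.3 CPM (control) and 8554.7 CPM (MYC library), and they held a median of 3165.5 and 4378 UMIs per cell, against 17138.5 and 16874 in granulocyte progenitors. Their part in these differences was not tested.

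**Figure D2:**
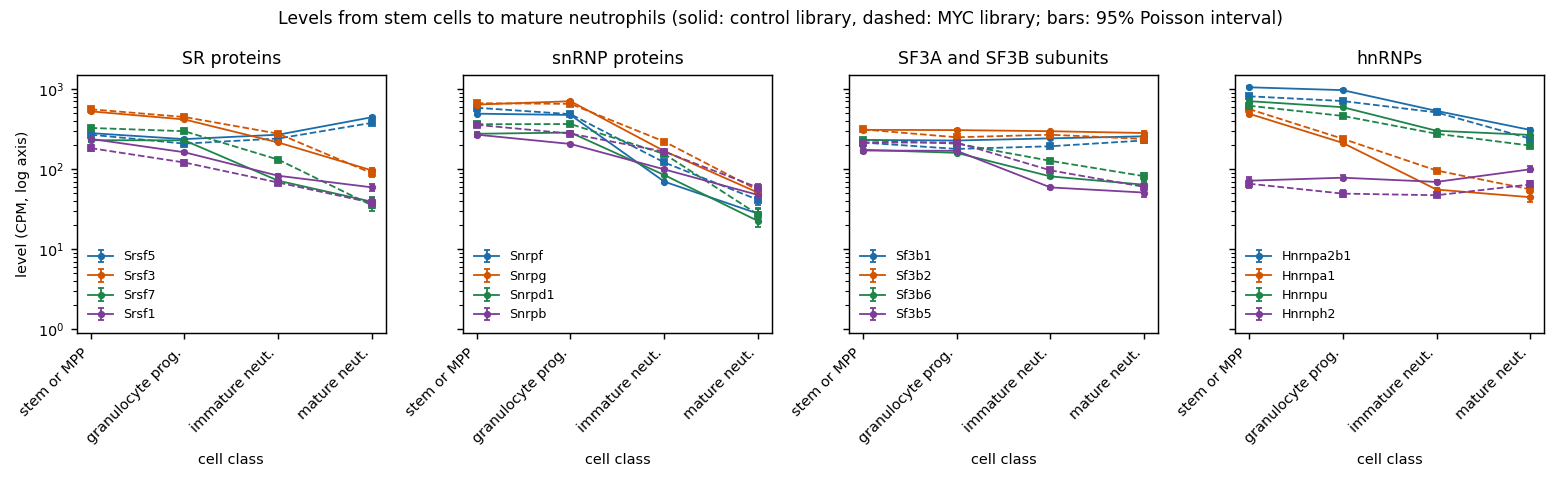
Level (CPM, log axis) of 4 genes of each protein group from stem or multipotent progenitors to mature neutrophils, control library solid and MYC library dashed, with 95% Poisson intervals. Snrpf and Snrpg are far lower in mature neutrophils than in progenitors, while Sf3b1 is nearly level and Srsf5 is highest in mature neutrophils.

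Between the libraries, the 52 genes did not shift as one block. The median of the snRNP genes lay above that of the hnRNP genes in each of the 8 classes, although the values of single genes overlapped between the groups. Of the 52 genes, 50 had at least 50 UMIs over both libraries in each of the 8 classes. Srsf12, a little-expressed SR protein, was left out with 10 UMIs over all control and 3 over all MYC cells. So was Snrpn, the imprinted SmN gene, with 1 and 2 UMIs. Its exons overlap those of Snurf and Gm38393 on the same strand, so its count is uncertain. The median log2 ratio of the 50 genes was -0.05 in stem or multipotent progenitors, -0.16 in granulocyte progenitors, 0.17 in immature neutrophils and -0.16 in mature neutrophils, where the medians over all features were -0.13, -0.27, -0.14 and -0.23. It was 0.12 in monocytes, -0.08 in erythroid cells, -0.73 in B lineage cells and 0.08 in T or NK cells, where those over all features were -0.13, -0.02, -0.43 and -0.07.

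The median of the 11 snRNP genes that passed was above that of the 20 hnRNP genes in 8 of 8 classes, by 0.28 in T or NK cells to 0.79 in immature neutrophils. A change of scale by 1 factor per library moves both medians nearly alike. Other weightings of cells or clusters do not act as 1 factor, and the difference is not given under them. The snRNP median was 0.24 in stem or multipotent progenitors, 0.08 in granulocyte progenitors, 0.67 in immature neutrophils and 0.28 in mature neutrophils, and the hnRNP median was -0.14, -0.37, -0.12 and -0.27. In monocytes, erythroid cells, B lineage cells and T or NK cells the snRNP medians were 0.43, 0.14, -0.51 and 0.22 and the hnRNP medians -0.07, -0.33, -0.87 and -0.06. The SR protein medians lay between -0.53 and 0.12 and the SF3 medians between -0.70 and 0.04. The order was also seen inside classes: 5 classes were made of more than 1 cluster, and in each of their 15 clusters the snRNP median was above the hnRNP median, by 0.29 to 0.83. Some clusters held few cells of 1 library: 17 MYC cells in B progenitors, and 81 MYC and 67 control cells in mature neutrophil clusters 0 and 1. Only 9 snRNP genes passed in each of these mature neutrophil clusters, and 8 in erythroblasts. All clusters share the same 2 libraries and are not independent observations.

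**Figure D3:**
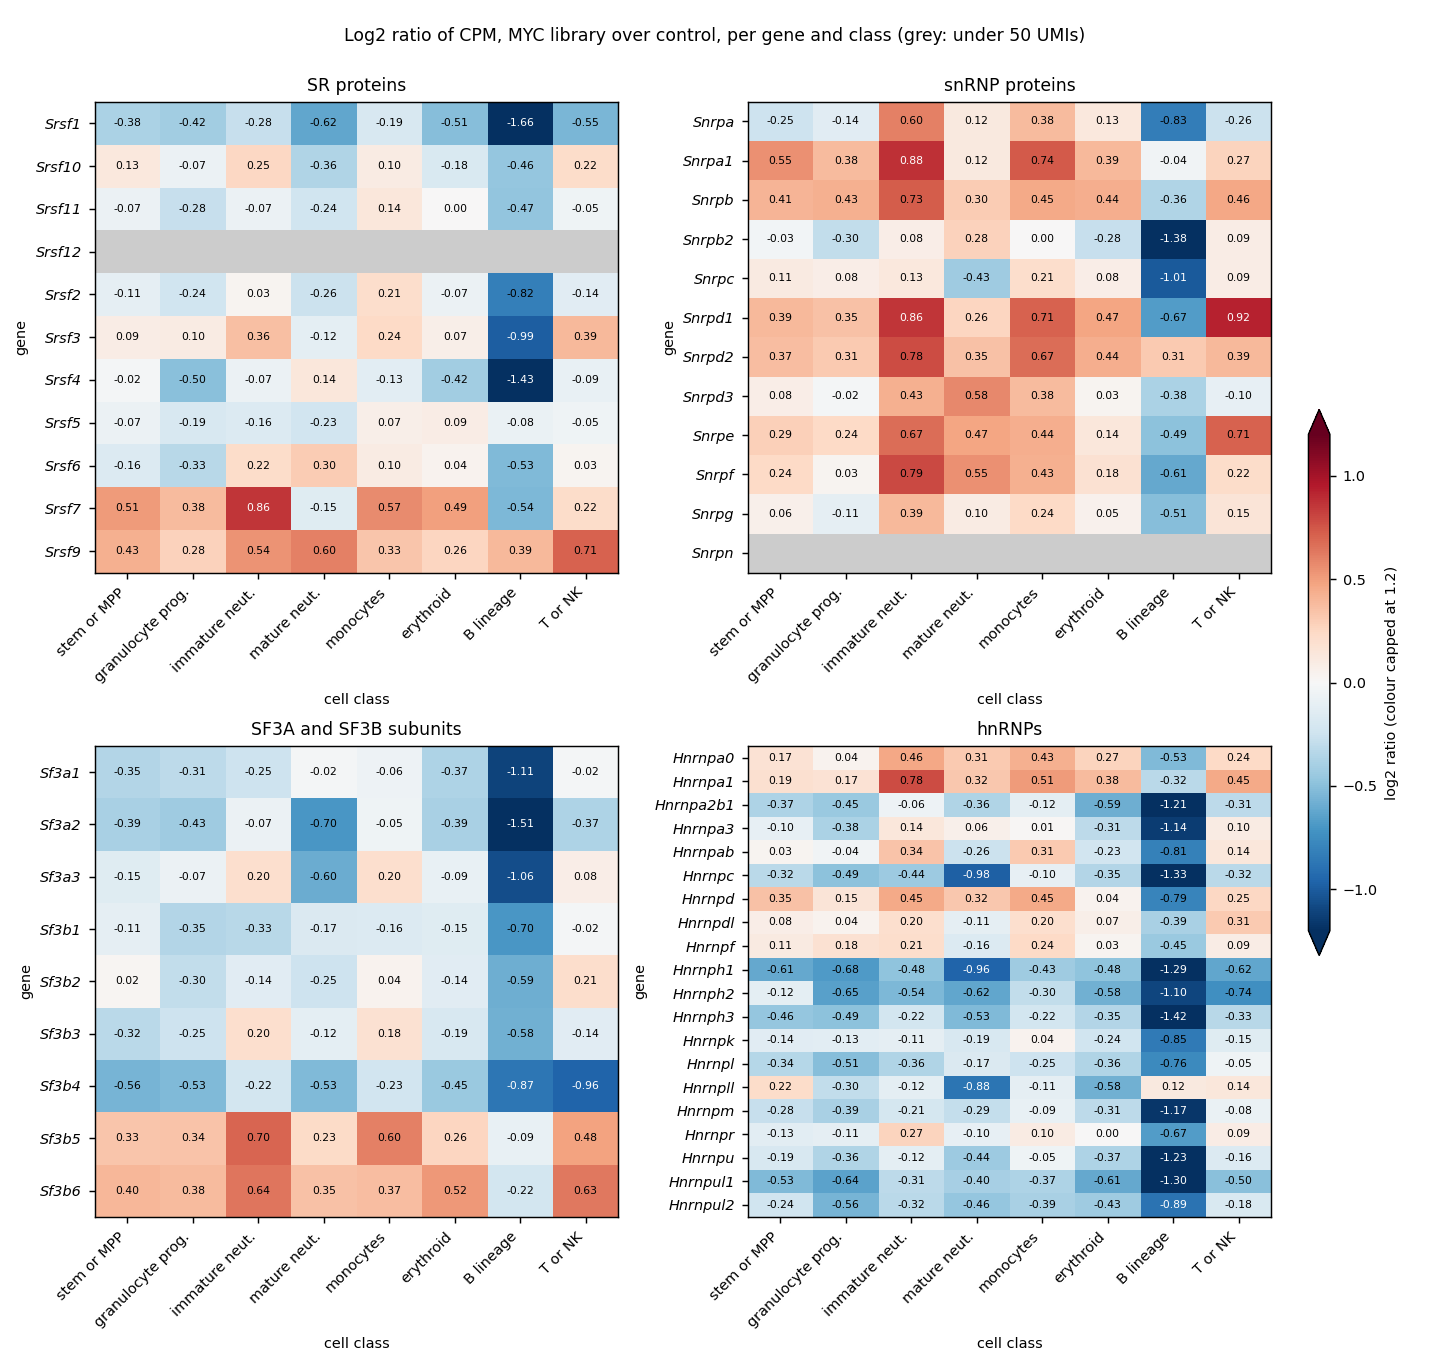
Log2 ratio of CPM in the MYC library over the control for each of the 52 genes (rows) in 8 classes (columns), red higher and blue lower in the MYC library, grey under 50 UMIs. Snrpd2 and Srsf9 are red in all 8 classes, Hnrnph1 and Srsf1 are blue in all 8, and the B lineage column is blue in 47 of 50 rows.

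Over all genes, longer transcripts had lower ratios. The snRNP transcripts are short, with a median length of 1204.5 bases (range 550 to 2061 over the 12 genes), beside 2257 for SR proteins, 2426.5 for hnRNPs and 3222 for SF3 subunits in the GENCODE annotation. Over all features, Spearman's rho between length and log2 ratio was between -0.35 in mature neutrophils and erythroid cells and -0.55 in granulocyte progenitors, and over the 50 genes between -0.23 in B lineage cells and -0.57 in immature neutrophils. These are correlations across genes of the same 2 libraries, which are not independent points. In immature neutrophils the 10 genes in the shortest of 5 equal bins of all features, 8 of them snRNP genes, had a median log2 ratio of 0.65, beside 0.31 for all 2118 features of that bin. In monocytes the 10 such genes had 0.40 beside 0.27, and in stem or multipotent progenitors the 11 such genes 0.37 beside 0.28. In erythroid cells the 11 genes had 0.26 beside 0.32, in granulocyte progenitors 11 had 0.28 beside 0.20, in mature neutrophils 11 had 0.30 beside 0.18 and in T or NK cells 10 had 0.37 beside 0.34. In B lineage cells the 11 genes had -0.49 while all features of the bin had 0.05. In the longest bin the medians over all features were between -0.22 and -0.69. The part of length in the difference between snRNP and hnRNP genes was not tested beyond these values.

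**Figure D4:**
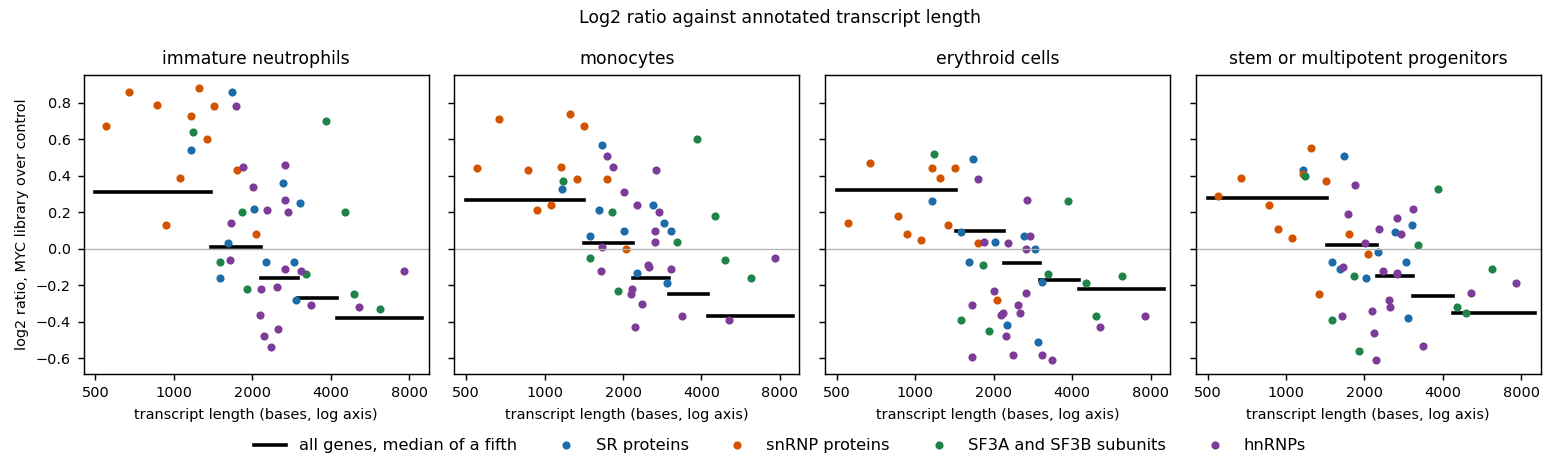
Log2 ratio of the 52 genes against median annotated transcript length (bases, log axis) in 4 classes, coloured by protein group, with the median of all genes in each of 5 length bins as a black line. The shortest bin of all genes lies above 0 in the 4 classes, and the snRNP genes lie at or above 0 in immature neutrophils and monocytes, while some are below 0 in the other 2, down to -0.28 in erythroid cells.

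In the class named immature neutrophils, the snRNP genes had the highest median of the 4 groups. Of the 50 genes, 11 were at least 1.5-fold higher in the MYC library, beside 9.1% of all 10575 features, and none was 1.5-fold lower, beside 16.9%. Of the 11, 7 were snRNP genes. The count of higher genes differed between the clusters of the class: in clusters 2, 3, 6 and 27 it was 8, 0, 3 and 1, beside 9.99%, 6.11%, 6.41% and 7.57% of all features, and the count of lower genes was 2, 3, 3 and 2, beside 10.3%, 15.4%, 17% and 12.9%. Without cluster 2 (2188 control cells and 2502 MYC cells left), 1 gene was higher, Srsf7, beside 6.04%, and 1 was lower, Hnrnph1, beside 12.8%. The median over the genes was then -0.05 beside -0.19 for all features, with medians of 0.38 for the snRNP and -0.28 for the hnRNP genes. The count of 11 was thus not seen without that cluster. Whether levels inside the cluster or its share of the class gave that count was not tested. Snrpd1 was at 84.4 CPM in control and 154.5 CPM in MYC cells, a log2 ratio of 0.86 (0.80 to 0.94). Snrpf was at 69.75 CPM in control and 121 CPM in MYC cells, a log2 ratio of 0.79 (0.72 to 0.87). Snrpb, which encodes the SmB ring protein, was at 99.25 CPM in control and 165 CPM in MYC cells, a log2 ratio of 0.73 (0.67 to 0.80). All 3 are Sm ring genes whose counting intervals lie above 0. Among SR genes Srsf7, the zinc knuckle SR protein, was at 71.7 CPM in control and 131 CPM in MYC cells (log2 ratio 0.86, 0.80 to 0.95), while Srsf2 was at 147 and 150 CPM (log2 ratio 0.03, -0.03 to 0.09). Hnrnpa1, an abundant shuttling hnRNP, was at 55.6 CPM in control and 96.03 CPM in MYC cells (log2 ratio 0.78, 0.70 to 0.87). The lowest were Hnrnph2 at 69.25 and 47.2 CPM (log2 ratio -0.54, -0.65 to -0.46), Hnrnph1 at 108 and 77.35 CPM (log2 ratio -0.48, -0.56 to -0.41) and Hnrnpc, which coats U-rich stretches of pre-mRNA, at 115 and 84.02 CPM (log2 ratio -0.44, -0.52 to -0.38).

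The makeup of the class differed between the libraries, and the group medians were read inside its 4 clusters as well. Cluster 2, led by Mmp8, Mmp9, Fpr1 and other genes of late neutrophils, held 48.2% of the control cells of the class and 12% of those of the MYC library, whereas cluster 3, led by Fcnb and histone genes, held 17.9% and 38.1%. Inside clusters 2, 3, 6 and 27 the snRNP medians were 0.59, 0.31, 0.48 and 0.39, and the hnRNP medians 0.05, -0.31, -0.29 and -0.14. In each of them the snRNP median was the highest of the 4 groups. Clusters led by Mmp8 were named mature at Leiden resolution 2 and with doublets kept, so the border between the immature and mature classes depends on the clustering. Snrpd1 had log2 ratios of 0.89, 0.31, 0.80 and 0.55 in these clusters and Snrpf of 1.08, 0.32, 0.66 and 0.41. Srsf7 had 0.08, 0.53, 0.16 and 0.57, each below its ratio over the whole class. The median over all 50 genes was 0.19, -0.12, -0.13 and -0.03 in the 4 clusters, so the value of 0.17 for the whole class was not seen in clusters 3, 6 and 27. An unnamed neutrophil cluster led by Retnlg held 77 control cells and 1412 MYC cells and is counted in no class. With it, the class median was -0.02. Over the class, 10 mature neutrophil markers summed to 7820.1 CPM in control and 3256 CPM in MYC cells, with 1 of them higher, and 9 erythroblast markers to 1555.7 and 847.9 CPM, with none higher. Their part in these ratios was not tested.

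**Figure D5:**
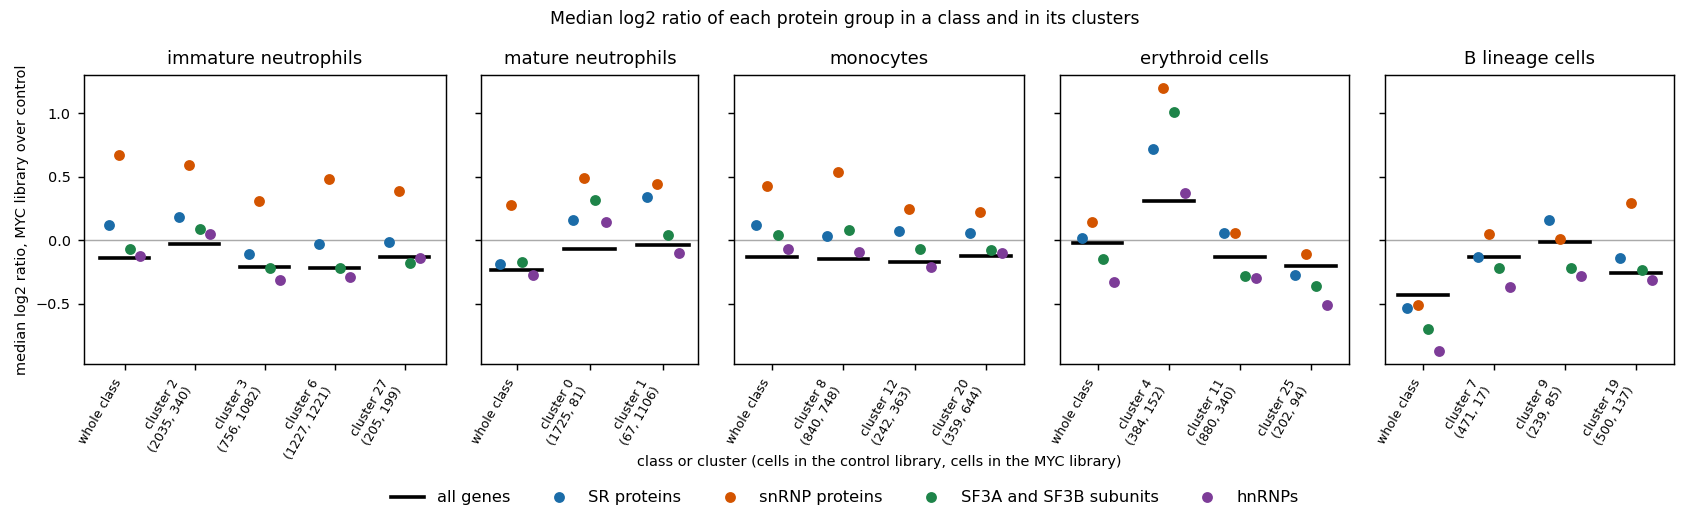
Median log2 ratio of the 4 protein groups (points) and of all genes (black lines) in 5 classes and in each of their clusters, with the cells of each library (control, then MYC) under each. The snRNP point is above the hnRNP point in all 15 clusters, and the 3 B lineage clusters lie nearer to 0 than the class they form.

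In mature neutrophils, the end stage of the lineage, 7 of the 50 genes were at least 1.5-fold lower in the MYC library, beside 23.1% of all 7463 features, and 1 was higher, beside 7.83%. The gene past the fold upward was Srsf9, a small SR protein, at 24.7 and 38.05 CPM (log2 ratio 0.60, 0.31 to 0.94); it lies under the 50 CPM asked of the genes named by size. Snrpd3, a Sm ring protein, was just short of the fold at 47.2 CPM in control and 71 CPM in MYC cells (log2 ratio 0.58, 0.36 to 0.82). Sf3b6, the SF3B subunit next to the branch adenosine, was at 63.8 and 81.6 CPM (log2 ratio 0.35, 0.15 to 0.56), and Hnrnpa1 at 44.6 and 55.85 CPM (log2 ratio 0.32, 0.08 to 0.57). Of the 7 lower genes, those that averaged 50 CPM or more were Hnrnpc at 169 CPM in control and 85.2 CPM in MYC cells (log2 ratio -0.98, -1.16 to -0.83), Hnrnph1 at 100.1 and 50.9 CPM (log2 ratio -0.96, -1.19 to -0.76) and Hnrnph2 at 99.5 and 64.4 CPM (log2 ratio -0.62, -0.83 to -0.43). The other 4 averaged less: Hnrnpll at -0.88, Sf3a2 at -0.70, Srsf1 at -0.62 and Sf3a3 at -0.60. Other lists differed in this class as well. Of 23 S phase genes, 15 were 1.5-fold lower, beside 23.1%, with sums of 481.7 CPM in control and 269.8 CPM in MYC cells. The 9 immature neutrophil markers, 7 of them higher, summed to 8644.5 and 13601.3 CPM, and the 9 erythroblast markers, none of them higher, to 3472.8 and 1767.1 CPM. The part of these lists in the ratios was not tested. The libraries filled different clusters here: cluster 0, led by Il1b, held 96.3% of the control cells and 6.82% of the MYC cells, and cluster 1, led by Stfa2, held 3.74% and 93.2%. Inside clusters 0 and 1 the median over the genes was 0.25 and 0.20, against -0.16 for the class, and that over all features -0.07 and -0.04. The balance of the counts turned as well, with 11 genes higher, beside 15.9%, and 4 lower, beside 21.7%, in cluster 0, and 15 higher, beside 21.4%, and 5 lower, beside 18.2%, in cluster 1. Hnrnph2 stood at -0.24 and 0.20 inside the clusters, and at -0.02 with the clusters weighted equally, while Hnrnph1 was at -0.99 and -0.31. Hnrnpc kept its direction in both clusters (-0.92 and -0.87) and so did Snrpd3 (0.70 and 0.73). Hnrnpu, the scaffold attachment factor, was at 267 and 197 CPM over the class (log2 ratio -0.44, -0.56 to -0.33), yet its ratio was 0.32 and 0.20 inside the clusters. For genes such as Hnrnpu and Hnrnph2, a change in level cannot be told apart from the change in clusters over the whole class.

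In monocytes 33 of the 50 genes had a log2 ratio above 0, beside 38.7% of all 11203 features, and 41 lay above the median of all features. Among them 4 genes were at least 1.5-fold higher, beside 7.24%, and none was 1.5-fold lower, beside 13.4%. Snrpa1 was at 55.3 CPM in control and 93.15 CPM in MYC cells, a log2 ratio of 0.74 (0.65 to 0.86). Snrpd1 was at 205 CPM in control and 337.5 CPM in MYC cells (log2 ratio 0.71, 0.66 to 0.77) and Snrpd2 at 194 CPM in control and 308 CPM in MYC cells (log2 ratio 0.67, 0.61 to 0.72). All 3 are snRNP genes, and the fourth, named after its value was seen, was the SF3B subunit Sf3b5 at 160.1 and 243 CPM (log2 ratio 0.60, 0.54 to 0.66). At the other end were Hnrnph1 at 189 CPM in control and 139.6 CPM in MYC cells (log2 ratio -0.43, -0.50 to -0.37) and 2 relatives of Hnrnpu, Hnrnpul2 at 201 and 154 CPM (log2 ratio -0.39, -0.45 to -0.33) and Hnrnpul1 at 187 and 145 CPM (log2 ratio -0.37, -0.43 to -0.30). Over the class, 9 markers of conventional dendritic cells, 1 of them higher, summed to 2190 CPM in control and 1129.2 CPM in MYC cells, and 9 erythroblast markers, none of them higher, to 1068 and 517.3 CPM. What part these had in the ratios was not tested. The 3 monocyte clusters, numbers 8, 12 and 20, held 7, 1 (Sf3b5) and 0 genes at least 1.5-fold higher, beside 12.3%, 6.26% and 5.68% of all features, and 1 (Hnrnph1), 1 (Hnrnpul2) and 0 lower, beside 19%, 15.9% and 10.9%. They gave gene medians of 0.07, 0.07 and 0.02, beside -0.15, -0.17 and -0.12 for all features, and snRNP medians of 0.54, 0.25 and 0.22. Snrpd1 was higher in the MYC library in each of them, with 0.92, 0.58 and 0.43.

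In stem or multipotent progenitors the 52 genes differed little as a whole, and their summed level was alike in both libraries. None of the 50 genes was at least 1.5-fold higher in the MYC library, beside 6.1% of all 9258 features, and 1 was lower, beside 11.8%. That gene was Hnrnph1, at 285 CPM in control and 187 CPM in MYC cells, a log2 ratio of -0.61 (-0.75 to -0.47). Sf3b4, the SF3B subunit that touches RNA before the branch point, was at 65.8 and 44.2 CPM (log2 ratio -0.56, -0.87 to -0.29) and Hnrnpul1 at 176 and 122 CPM (log2 ratio -0.53, -0.71 to -0.36). The highest ratios were those of Snrpa1 at 82.7 CPM in control and 122 CPM in MYC cells (log2 ratio 0.55, 0.35 to 0.76), Srsf7 at 229.5 and 326.5 CPM (log2 ratio 0.51, 0.38 to 0.63) and Srsf9 at 78.3 and 106 CPM (log2 ratio 0.43, 0.22 to 0.65). Summed over their group, snRNP genes went from 2976.2 to 3488 CPM, a log2 ratio of 0.23 (0.19 to 0.26), and hnRNP genes from 6873.5 to 6379.2 CPM, -0.11 (-0.13 to -0.08). Markers of neighbouring stages also differed in this class: the summed granulocyte progenitor markers were 3022.3 CPM in control and 7210.9 CPM in MYC cells, with 7 of 7 higher, and the immature neutrophil markers 2711.5 and 1164.9 CPM, with 2 of 9 higher and none at 0 in both. Their part in the gene ratios was not tested.

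Granulocyte progenitors, the cells that make primary granules, had snRNP genes highest and hnRNPs lowest of the 4 groups. None of the 50 genes was 1.5-fold higher, beside 3.66% of all 9864 features, and 3 were lower, beside 20.8%, all of them hnRNPs. These were Hnrnph1 at 193 CPM in control and 120.3 CPM in MYC cells (log2 ratio -0.68, -0.79 to -0.57), Hnrnph2 at 78.1 and 49.5 CPM (log2 ratio -0.65, -0.83 to -0.49) and Hnrnpul1 at 172 and 109.6 CPM (log2 ratio -0.64, -0.76 to -0.53). Snrpb was at 206 CPM in control and 277 CPM in MYC cells (log2 ratio 0.43, 0.35 to 0.51), Snrpa1 at 77.3 and 101 CPM (log2 ratio 0.38, 0.25 to 0.52) and Sf3b6 at 159.6 and 208 CPM (log2 ratio 0.38, 0.29 to 0.48). Summed hnRNP UMIs were 5824.9 CPM in control and 4944.2 CPM in MYC cells, a log2 ratio of -0.24 (-0.25 to -0.22). In the same class 7 eosinophil progenitor markers, 5 of them higher, summed to 103.4 CPM in control and 595.2 CPM in MYC cells, and 26 S phase genes to 3134.3 and 2378.2 CPM, with 7 of them 1.5-fold lower, beside 20.8%, and 1 higher, beside 3.66%. Their part in these ratios was not tested. The median over the genes turned to 0.13 when the libraries were scaled by the median ratio of all features, and to 0.08 with cells under 5% mitochondrial UMIs. Under the former scaling 7 genes were at least 1.5-fold higher and none lower, without a share of all features to set beside them. Hnrnph1, Hnrnph2 and Hnrnpul1 then stood at -0.39, -0.36 and -0.35, short of the fold.

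In erythroid cells, which carry the haemoglobin genes, the median was -0.08 beside -0.02 for all features. Of the 50 genes, 23 lay above 0, beside 48.6% of all features. None was 1.5-fold higher, beside 13%, and 2 were lower, beside 12.4%. These were Hnrnpul1 at 214 CPM in control and 139 CPM in MYC cells (log2 ratio -0.61, -0.72 to -0.52) and the abundant hnRNP Hnrnpa2b1 at 1112.8 CPM in control and 739 CPM in MYC cells (log2 ratio -0.59, -0.63 to -0.55), followed by Hnrnph2 at 101 and 67.4 CPM (log2 ratio -0.58, -0.73 to -0.45). Highest were Sf3b6 at 124 CPM in control and 178 CPM in MYC cells (log2 ratio 0.52, 0.42 to 0.61), Srsf7 at 184 and 258 CPM (log2 ratio 0.49, 0.41 to 0.57) and Snrpd1 at 228 and 316.5 CPM (log2 ratio 0.47, 0.40 to 0.54). Cycling genes and neutrophil markers differed between the libraries in this class: 26 genes of S phase summed to 5581.8 CPM in control and 3548.1 CPM in MYC cells, 27 of G2/M to 9494.9 and 6802.3 CPM, and 9 immature neutrophil markers, 7 of them higher and none at 0, to 3196.1 and 5511.5 CPM. Their part in these ratios was not tested. The 2 stages of the class differed. In early erythroid progenitors (1082 control cells and 434 of the MYC library) the median was -0.09, with 4 genes lower (Hnrnpul1, Hnrnph2, Hnrnpa2b1 and Hnrnpll), beside 13.1% of all features, and none higher, beside 12.1%. In haemoglobin-rich erythroblasts (384 and 152 cells) 40 genes passed, with a median of 0.82 beside 0.31 for all 3166 features. Of these 40, 24 were at least 1.5-fold higher, beside 39.2%, and none was 1.5-fold lower, beside 17.8%. In erythroblasts Snrpf was at 35.5 CPM in control and 94.2 CPM in MYC cells (log2 ratio 1.38, 0.95 to 1.87) and Snrpg at 47.6 and 126 CPM (log2 ratio 1.38, 1.01 to 1.79), while Hnrnpa2b1 was at 296 and 299 CPM (log2 ratio 0.01, -0.20 to 0.22). Cycling genes differed in erythroblasts too. The S phase list summed to 555.8 CPM in control and 922.6 CPM in MYC cells, with 10 of 17 genes higher, beside 39.2%, and none lower. The G2/M list summed to 6646.4 and 4267.4 CPM, with 1 of 27 higher and 10 lower, beside 17.8%. Their part in these ratios was not tested. The erythroblasts of the MYC library were shallower, with a median of 3080 UMIs per cell against 6276 in the control, and whether the stages within the cluster matched was not tested.

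B lineage cells had the lowest ratios of any class, and these went with a different makeup of the class. Of the 50 genes, 30 were at least 1.5-fold lower in the MYC library, beside 39.9% of all 9519 features, and none was higher, beside 7.86%. Among genes that averaged 50 CPM or more, the lowest were Srsf1 at 131.5 CPM in control and 40.9 CPM in MYC cells (log2 ratio -1.66, -1.99 to -1.39), Hnrnpc at 180.1 and 71.1 CPM (log2 ratio -1.33, -1.57 to -1.12) and Hnrnpul1 at 160.4 and 64.8 CPM (log2 ratio -1.30, -1.55 to -1.08). Of the genes that averaged less, Sf3a2, Srsf4, Hnrnph3 and Snrpb2 had log2 ratios of -1.51, -1.43, -1.42 and -1.38. Srsf9 at 77.9 and 102.5 CPM (log2 ratio 0.39, 0.19 to 0.60) and Snrpd2 at 119 and 147 CPM (log2 ratio 0.31, 0.14 to 0.48) stood higher. B progenitors, in which the 52 genes summed to 13219.7 CPM in the control, made up 471 of the 1210 control cells and 17 of the 239 MYC cells. Plasma cells, in which the genes summed to 3138 CPM in control and 3129.4 CPM in MYC cells, made up 239 and 85 cells. The summed S phase genes of the class were 1531.7 CPM in control and 374.4 CPM in MYC cells. Each stage taken alone was nearer to 0. In mature B cells (500 and 137 cells) the median was -0.20 beside -0.26 for all features, with 10 of 49 genes lower, beside 26%, and 1 higher (Snrpd2), beside 7.41%. In plasma cells it was -0.06 beside -0.01, with 4 of 49 genes lower (Hnrnpc, Sf3a2, Hnrnpul2 and Hnrnpul1), beside 16.7%, and 3 higher (Snrpa1, Hnrnpa1 and Snrpd2), beside 17.8%.

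Within mature B cells some genes still differed beyond counting error. Srsf1 was at 125 CPM in control and 53.4 CPM in MYC cells (log2 ratio -1.21, -1.75 to -0.73) and Hnrnpa2b1 at 663 CPM in control and 450.4 CPM in MYC cells (log2 ratio -0.56, -0.74 to -0.38), whereas Snrpd2 was at 115 CPM in control and 209 CPM in MYC cells (log2 ratio 0.86, 0.57 to 1.16) and Snrpf at 204 and 259.9 CPM (log2 ratio 0.35, 0.10 to 0.59). Srsf3, which was at -0.99 (-1.15 to -0.84) over the whole B lineage, was at -0.25 (-0.50 to 0.00) in mature B cells and 0.31 (0.05 to 0.57) in plasma cells. Cycling genes differed within this stage too: the S phase list summed to 972.2 CPM in control and 489.4 CPM in MYC cells, with 15 of 19 genes at least 1.5-fold lower, and the G2/M list to 1364.3 and 462 CPM, with 19 of 21 lower, beside 26% of all features. Summed levels of 9 immature neutrophil markers were higher in B lineage MYC cells, 5262.7 CPM against 2878 CPM, with all 9 markers higher and none at 0. Over the same class 10 monocyte markers, 6 of them higher, summed to 458.9 CPM in control and 2340.8 CPM in MYC cells. By contrast 7 granulocyte progenitor markers, 1 of them higher, summed to 509.6 and 203.1 CPM. Their part in these ratios was not tested.

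T or NK cells were the smallest of the 8 classes in the MYC library, and the 52 genes held the fewest UMIs there in both libraries, 22507 and 7017. Of the 50 genes, 4 were at least 1.5-fold higher, beside 10.4% of all 6660 features, and 3 were lower, beside 14.2%. Snrpd1 was at 81.1 CPM in control and 154 CPM in MYC cells, a log2 ratio of 0.92 (0.60 to 1.25). Snrpe, a further Sm ring protein, was at 207 CPM in control and 340 CPM in MYC cells (log2 ratio 0.71, 0.50 to 0.92), Srsf9 at 46.3 and 76.5 CPM (log2 ratio 0.71, 0.26 to 1.17) and Sf3b6 at 91.9 and 143 CPM (log2 ratio 0.63, 0.31 to 0.96). The 3 lower genes were Sf3b4 at 43.4 and 21.9 CPM (log2 ratio -0.96, -1.79 to -0.27), which averaged under 50 CPM, Hnrnph2 at 77.8 and 46.1 CPM (log2 ratio -0.74, -1.29 to -0.25) and Hnrnph1 at 182 and 118 CPM (log2 ratio -0.62, -0.95 to -0.31). Srsf1 was short of the fold at 150.2 and 102 CPM (log2 ratio -0.55, -0.91 to -0.22). The immature neutrophil markers were again higher in the MYC library, 6983.3 against 3815.4 CPM, with 8 of 9 markers higher and none at 0. So were 10 mature neutrophil markers, at 1549.4 against 610.5 CPM, with 8 of them higher. The 7 granulocyte progenitor markers went the other way, at 301.1 against 863.8 CPM, with 1 of them higher. The part of these markers in the ratios was not tested. Basophils or mast cells (184 and 148 cells) gave a median of 0.05 beside -0.18 for all features, with 4 genes higher (Snrpd1, Snrpd2, Srsf7 and Snrpa1), beside 9.25%, and 3 lower (Hnrnph2, Hnrnph1 and Hnrnpul1), beside 20.8%, and Snrpd1 was at 135 CPM in control and 275 CPM in MYC cells (log2 ratio 1.02, 0.79 to 1.27).

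Read gene by gene, 2 of the 50 genes had a log2 ratio above 0 in all 8 classes, beside 10% of the 5604 features that passed in every class, and 15 had one below 0 in all 8, beside 25.1%. The first 2 were Snrpd2 and Srsf9. Snrpd2 ranged from 0.31 in granulocyte progenitors and B lineage cells to 0.78 in immature neutrophils, and Srsf9 from 0.26 in erythroid cells to 0.71 in T or NK cells. The 15 comprised 10 of the 20 hnRNPs, 4 of the 9 SF3 subunits, Srsf1 and no snRNP gene. The hnRNPs were Hnrnpa2b1, Hnrnpc, Hnrnph1, Hnrnph2, Hnrnph3, Hnrnpl, Hnrnpm, Hnrnpu, Hnrnpul1 and Hnrnpul2, and the SF3 subunits Sf3a1, Sf3a2, Sf3b1 and Sf3b4. The 8 classes share their 2 libraries, so a common direction is not 8 independent observations. Other scalings turned some of the 15: with the median ratio of all features as the scale, Hnrnpa2b1 stood at 0.09 in immature neutrophils and 0.02 in monocytes, Hnrnpu at 0.03 and 0.09 in the same classes, and Sf3b1 at 0.07 in mature neutrophils.

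Hnrnph1, whose protein binds G runs near splice sites, stood lower in the MYC library in each class. Its level in the control ran from 100.1 CPM in mature neutrophils to 285 CPM in stem or multipotent progenitors, and in the MYC library from 50.9 to 187 CPM. Its log2 ratio was between -0.43 in monocytes and -1.29 in B lineage cells, and its counting interval lay below 0 in all 8 classes. It was also below 0 in 14 of the 15 clusters, erythroblasts being the exception at 0.03 (-0.55 to 0.59). Srsf1, the founding SR protein, was between -0.19 in monocytes and -1.66 in B lineage cells, with an interval below 0 in all 8 classes. Inside the clusters it was below 0 in 12 of 15, and stood at 0.00 in mature neutrophil cluster 1, 0.02 in immature neutrophil cluster 2 and 0.24 in erythroblasts.

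Several genes with well-known roles differed little or changed direction with the class. Sf3b1 was between -0.70 in B lineage cells and -0.02 in T or NK cells and stood at 231 and 215 CPM in stem or multipotent progenitors (log2 ratio -0.11, -0.25 to 0.03). Srsf2 was at -0.11 (-0.23 to 0.00) in stem or multipotent progenitors, -0.24 (-0.32 to -0.16) in granulocyte progenitors and 0.21 (0.15 to 0.26) in monocytes. Hnrnpk, a poly(C)-binding hnRNP, stood between -0.85 in B lineage cells and 0.04 in monocytes. Sf3a1, the SF3A subunit that contacts the U1 snRNP, was at 71.4 and 55.7 CPM in stem or multipotent progenitors (log2 ratio -0.35, -0.62 to -0.09) and 48.4 and 46.5 CPM in monocytes (log2 ratio -0.06, -0.18 to 0.07). Hnrnpdl, a relative of Hnrnpd, was at 0.08 (-0.08 to 0.25) and 0.20 (0.13 to 0.27) in the same 2 classes. Hnrnpu was at -0.19 (-0.27 to -0.11) and -0.05 (-0.09 to -0.01). For Sf3b1 and Hnrnpdl in stem or multipotent progenitors the intervals include 0, so a difference was not detectable at this depth.

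Other splicing genes were set beside the 52 as lists. Of 40 other splicing regulators, such as Ptbp1, Rbm39 and Mbnl1, 39 passed in every class and had medians below those of all features in each of the 8 classes, from -0.22 in monocytes and erythroid cells to -0.98 in B lineage cells. In granulocyte progenitors 15 of these 39 were at least 1.5-fold lower, beside 20.8% of all features, and none higher, beside 3.66%. In B lineage cells 35 were lower, beside 39.9%. In the other classes the share was nearer to that of all features or below it: 5 were lower in stem or multipotent progenitors, beside 11.8%, 8 in immature neutrophils, beside 16.9%, 11 in mature neutrophils, beside 23.1%, 3 in monocytes, beside 13.4%, 5 in erythroid cells, beside 12.4%, and 8 in T or NK cells, beside 14.2%. The 27 measured proteins of the other snRNPs and the LSm ring had medians above those of all features in each of the 8 classes, between -0.38 in B lineage cells and 0.40 in immature neutrophils. In immature neutrophils 8 were at least 1.5-fold higher, beside 9.1%, and none lower, and in monocytes, with a median of 0.33, 3 were higher, beside 7.24%, and none lower. In granulocyte progenitors their median was -0.04, with 1 higher, beside 3.66%, and none lower, and in mature neutrophils, where 24 passed, it was 0.05, with 2 higher, beside 7.83%, and 3 lower, beside 23.1%. In B lineage cells 11 were lower, beside 39.9%, and 2 higher, beside 7.86%. The 12 snRNP assembly genes, among them Smn1 and Prmt5, had 10 that passed in immature neutrophils, with a median of 0.35, 4 higher, beside 9.1%, and 1 lower, beside 16.9%. In monocytes 11 passed, with a median of 0.36, 2 higher, beside 7.24%, and none lower. The 15 relatives and kinases of SR proteins, such as Clk1 and Srrm2, had medians of -0.22 and -0.15 in these 2 classes and -0.47 in granulocyte progenitors. The 18 spliceosomal helicases and members of the Prp19 and exon junction complexes had medians of -0.05 in immature neutrophils, 0.03 in monocytes and -0.34 in granulocyte progenitors, where 1 was higher, beside 3.66%, and 4 were lower, beside 20.8%, a share near that of all features. A list of 30 genes known to be induced by MYC, such as Ncl and Odc1, had medians of 0.54 in immature neutrophils, 0.61 in monocytes, 0.17 in stem or multipotent progenitors and 0.05 in granulocyte progenitors. In mature neutrophils, erythroid cells, B lineage cells and T or NK cells its medians were -0.03, 0.34, -0.09 and 0.07. Set beside the snRNP medians, the order of the classes was alike in part. Immature neutrophils and monocytes had the highest medians both of this list and of the snRNP genes, and B lineage cells the lowest. Erythroid cells had the third highest median of this list but the third lowest of the snRNP genes.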

How the data were processed

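Single bone marrow cells of 2 libraries were sequenced from Chromium 3′ libraries, per the labels' protocols. The deposited files are the authors' matrices of raw UMI counts per gene and cell barcode, written by Cell Ranger 6.0.0, as stated per the file headers. Per the submitters' processing notes the build was GRCm38 (mm10), and Seurat is also named there. The annotation used for counting, and how cells were told from empty droplets, are not given in the sources used here.

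From these counts, cells with at least 500 UMIs, at least 200 genes and under 10% mitochondrial UMIs were kept. Doublets were called per library with Scrublet in scanpy 1.11.5, at an expected rate of 0.8% per 1000 barcodes, and 701 control cells (4.53%) and 251 cells of the MYC library (1.95%) were removed. At Scrublet's default rate 558 and 0 cells were called, so the number called in the MYC library depended strongly on the expected rate. The libraries were clustered together without the 52 genes (counts scaled to 10000 per cell, 2000 variable genes, 30 components, 15 neighbours, Leiden resolution 1, python-igraph 0.11.9), and clusters were named from lists of markers. A cluster with no marker of its class among its 10 leading genes, or with more markers of another class there, or whose median UMI count was under 0.2 of its library's median (a limit set after seeing the data), was left unnamed, which left out 2876 control cells and 4298 cells of the MYC library in 5 clusters, of which 2453 and 2677 were in 1 cluster of low-UMI cells. By this rule the Mmp8-led cluster 2, with 1 immature (Mmp8) and 1 mature neutrophil marker (Mmp9) among its leading genes, was kept as immature, and the Retnlg-led cluster, with 1 (Mmp8) and 2 (Retnlg and Mmp9), was not.

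UMIs were summed per gene, class and library and given as CPM with exact Poisson intervals at 95%, and the interval of a ratio is the exact binomial one. The pseudocount was 1 CPM, a gene needed 50 UMIs over both libraries, and a gene was counted as higher or lower past 1.5-fold. No test between the groups was run, since each is 1 library. The sums and folds were tested on simulated data. numpy 2.4.6, scipy 1.17.1, pandas 2.3.3 and matplotlib 3.10.9 were used. UMIs from the 3′ end do not allow levels of different genes to be compared. Counted reads of genes that overlap on the same strand, Hnrnpm with March2 and Snrpn with Snurf, are uncertain, and 17 of the 52 genes overlap an exon of a gene on the opposite strand.

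The genes named are 16 fixed by their role, in each class the 3 highest and 3 lowest ratios among genes that averaged 50 CPM or more with an interval that leaves out no difference, and the 3 largest and 3 smallest spreads across classes in each library. Genes named to illustrate a group or a stage beyond these were chosen after their values were seen. The genes, the gene lists and the comparisons were chosen with earlier results of these data known. Of the alternatives, 11 were planned and 5 were added after seeing the data.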

Additional observations from a re-analysis of the deposited data

Results flagged for a closer look

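Of the 16 genes fixed by their role, 9 differed in direction between classes, with counting intervals of the log2 ratio that lay above 0 in 1 class and below 0 in another. With 1 library per genotype the difference between the classes was not tested, and B lineage cells, whose makeup differed between the libraries, were the low class for 8 of the 9. Between T or NK cells and B lineage cells, Snrpd1 differed by 1.59 (0.92 and -0.67) and Srsf3 by 1.38 (0.39 and -0.99). Between immature neutrophils and B lineage cells, Srsf7 differed by 1.40 (0.86 and -0.54), Hnrnpa1 by 1.10 (0.78 and -0.32), Snrpb by 1.09 (0.73 and -0.36) and Hnrnpdl by 0.59 (0.20 and -0.39). Srsf2 differed by 1.03 between monocytes (0.21) and B lineage cells (-0.82), and Snrpd3 by 0.96 between mature neutrophils (0.58) and B lineage cells (-0.38). With clusters weighted equally, the B lineage values of Hnrnpa1, Snrpb, Snrpd3, Hnrnpdl, Snrpd1 and Srsf3 lay above 0, as given below. The ninth, Srsf5, differed by 0.32 between erythroid cells (0.09) and mature neutrophils (-0.23). Each of these 2 values changed sign under some alternatives, as given below. Genes outside the 16 were not searched in this way, and some of them turned as well: Snrpf was at 0.79 (0.72 to 0.87) in immature neutrophils and -0.61 (-0.78 to -0.45) in B lineage cells.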

How the results depend on the processing

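No paired analysis was possible because each group is a single library. Of 154 gene ratios by class, 104 kept their sign under each alternative run and 50 changed it under at least 1. Of these 50, 28 had a counting interval that left out 0, and their values are given here. With clusters weighted equally, the median over the genes was 0.22 in mature neutrophils, 0.13 in erythroid cells and -0.12 in B lineage cells, where it stood 0.06 above that of all features (-0.30 over the whole class). Under the same weighting Srsf5 was at 0.01 in immature neutrophils, Hnrnpu, Sf3b1 and Srsf5 were at 0.26, 0.21 and 0.14 in mature neutrophils and Srsf2 at 0.15 in erythroid cells. In B lineage cells Hnrnpa1, Snrpb, Snrpd3, Hnrnpdl, Snrpd1 and Srsf3 were at 0.55, 0.37, 0.17, 0.16, 0.13 and 0.03. With the mean over cells, the B lineage median was -0.31, with Hnrnpdl, Snrpd3, Hnrnpa1 and Snrpb at 0.18, 0.16, 0.10 and 0.00, while Hnrnpa2b1 was at 0.07 in immature neutrophils, Hnrnpu at 0.00 in monocytes and Sf3b1 at 0.09 in erythroid cells.

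With median-of-ratios scaling, the median over the genes was 0.13 in granulocyte progenitors, 0.26 in monocytes, -0.27 in B lineage cells and 0.16 in T or NK cells. Hnrnpk, Srsf5 and Srsf2 were then at 0.16, 0.10 and 0.05 in granulocyte progenitors, Hnrnpa2b1, Hnrnpk and Hnrnpu at 0.09, 0.04 and 0.03 in immature neutrophils, Sf3b1, Hnrnpk and Srsf5 at 0.07, 0.05 and 0.01 in mature neutrophils, Hnrnpu and Hnrnpa2b1 at 0.09 and 0.02 in monocytes, and Hnrnpa1, Snrpb, Hnrnpdl and Snrpd3 at 0.14, 0.10, 0.07 and 0.07 in B lineage cells. Without ribosomal protein genes in the denominator (added after seeing the data), the medians were 0.11 in stem or multipotent progenitors, 0.26 in monocytes, 0.09 in erythroid cells and 0.21 in T or NK cells. Hnrnpk was then at 0.02 in stem or multipotent progenitors, Hnrnpa2b1 at 0.00 in immature neutrophils and 0.02 in monocytes, Hnrnpu at 0.09 in monocytes, and Srsf2 and Sf3b1 at 0.10 and 0.02 in erythroid cells. Without the 20 most abundant genes, the medians were -0.17 in stem or multipotent progenitors, -0.01 in monocytes and -0.08 in T or NK cells, and Srsf5 was at -0.06 in monocytes and -0.05 in erythroid cells, where Srsf3 was at -0.07.

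With cells under 5% mitochondrial UMIs, the medians were 0.08 in granulocyte progenitors, 0.26 in monocytes and 0.05 in erythroid cells, Sf3a1 and Hnrnpk were at 0.14 and 0.01 in granulocyte progenitors, Hnrnpu and Hnrnpa2b1 at 0.02 and 0.00 in monocytes and Srsf2 at 0.05 in erythroid cells. With doublets kept, an Mmp8-led cluster was named mature and the Retnlg-led cluster immature, and the immature neutrophil median was -0.16, with Srsf5, Hnrnpdl and Srsf3 at 0.04, -0.04 and -0.08. Counting the low-UMI cluster as erythroid put Srsf3 at -0.03, and counting the Retnlg-led cluster as mature neutrophils gave a median of -0.26. Leaving the Mmp8-led cluster out of the immature neutrophils gave a median of -0.05 there and 1 gene at least 1.5-fold higher in place of 11 (these 3 were added after seeing the data). The cause of these changes was not tested. Across the alternatives, the number of genes at least 1.5-fold higher ranged from 0 to 15 in immature neutrophils, 1 to 12 in mature neutrophils, 2 to 9 in monocytes, 0 to 7 in erythroid cells and in granulocyte progenitors, and 1 to 7 in T or NK cells. The number at least 1.5-fold lower ranged from 8 to 31 in B lineage cells, 3 to 9 in mature neutrophils and 0 to 7 in erythroid cells. At Leiden resolution 0.5 no stem or multipotent class could be named.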
